A study of Mus musculus with 35 samples.

Results

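Gene expression in whole lung after inhalation of 40 ppm styrene was compared with that after 10 ppm. The 10 ppm group had 5 arrays and the 40 ppm group had 5, of 35 arrays in 7 dose groups of 5. All animals were adult male wild type C57Bl/6 mice from Taconic, with no other allele or agent given. Each inhaled styrene, or air alone in the 0 ppm group, for a single 6 h exposure, and tissue was taken on the following morning. The groups used here besides 10 and 40 ppm are 0, 5 and 20 ppm, for which the labels give no difference but the dose. The arrays of the 10 and 40 ppm groups were chosen by their dose labels, and every non-control probe set with a single gene symbol entered, with the brightest probe set standing for its gene. This gave 17097 genes, from 28898 of 45037 non-control probe sets. The labels number the arrays as biological replicates, and the titles give each of the 10 arrays a different animal number. P-values measure only the spread between these arrays.

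Styrene is a volatile aromatic hydrocarbon that cytochromes of the airway club cells, chiefly Cyp2f2 in mice, oxidise to a reactive epoxide. The lung answers inhaled irritants through several programmes. Type 2 inflammation recruits eosinophils with eotaxins and turns airway cells into mucus-secreting goblet cells, and interferons switch on antiviral genes through their receptors. Heat shock factor and the unfolded protein response raise chaperones of the cytosol and of the endoplasmic reticulum (ER), and immediate early genes encode transcription factors that respond within minutes to growth and stress signals.

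Values are log2 signals, and a difference is the 40 ppm mean minus the 10 ppm mean, with limma's standard error (SE). A gene is called when its Benjamini-Hochberg adjusted p over all 17097 genes is under 0.05. The median signal of an array lay between 4.61 and 4.70 at 10 ppm and between 4.59 and 4.66 at 40 ppm, and any pair of the 10 arrays correlated between 0.984 and 0.995 across genes. Of 9 summaries, the 3' minus 5' difference of the Gapdh control had the smallest p (-0.11 against -0.04, two-sided exact permutation p = 0.0159, Benjamini-Hochberg 0.143). Poly-A spike-ins averaged 6.43 at 10 ppm and 6.63 at 40 ppm (two-sided exact permutation p = 0.183, Benjamini-Hochberg 0.329). Scgb1a1, the secretoglobin that defines club cells of the airway, lay at 13.85 and 13.75 in these lung samples.

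Between 10 and 40 ppm, chaperones, interferon-induced genes and mucus and eosinophil-attracting genes were lower at the higher dose. Immediate early genes and genes of fatty acid breakdown were higher, as were the serine protease Prss22 and the claudin Cldn4. In all, 726 genes (4.25%) were higher at 40 ppm and 280 (1.64%) were lower, 1006 (5.88%) in either direction. The median difference over all genes was 0.04, with quartiles of -0.08 and 0.15. The lower genes moved further: their median difference was -0.65 and 44 of them differed at least 2-fold as measured, against 0.46 and 24 for the higher genes. The 5 arrays at 40 ppm lay above all 5 at 10 ppm for 557 of the higher genes, and below all 5 for 217 of the lower genes. Over all genes such a separation was seen for 6.42% and 2.63%. Higher genes made up 72.2% of calls, and 61.5% when arrays were rescaled by cyclic loess (524 higher and 328 lower). Without 10 ppm replicate 2 the counts were 350 higher and 133 lower, and without 40 ppm replicate 4 they were 437 and 171. Without 10 ppm replicate 1 they were 438 and 194. In whole lung, fewer cells of a type and less RNA per cell cannot be told apart.

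**Figure D1:**
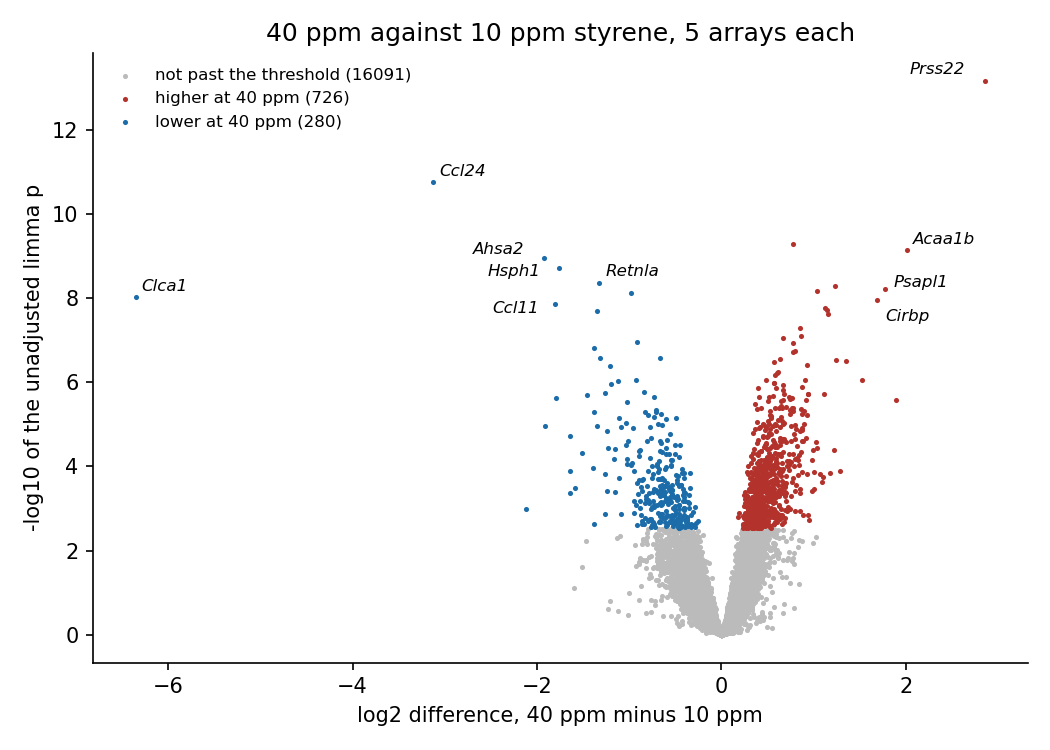
Each point is a gene, placed by its log2 difference between 40 and 10 ppm (x axis) and by the -log10 of its unadjusted limma p (y axis), with 726 called higher in red, 280 called lower in blue and the rest in grey. Clca1 lies farthest to the left and Prss22 farthest to the right.

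The 20 ppm arrays placed these changes along the dose axis. The 20 ppm mean lay between the 10 and 40 ppm means for 712 of the 726 higher genes (98.1%) and for 268 of the 280 lower genes (95.7%), against 45.4% of all genes. Genes called for a distance between the outer doses favour such a place, so these shares are a description. The median higher gene had gone 44.6% of the way by 20 ppm, and the median lower gene 50.2%. A contrast of the 20 ppm mean with the midpoint of 10 and 40 ppm, which does not use the difference between the outer doses, called 0 genes in limma (smallest adjusted p = 0.990). In that contrast 687 genes had an unadjusted p under 0.05. Its power was not tested, so the 0 calls cannot show that the 20 ppm means lay at the midpoint. Either step alone gave few calls. From 10 to 20 ppm, 11 genes (0.0643%) were higher and 8 (0.0468%) lower (0.111% of genes in all, with 1070 at an unadjusted p under 0.05). From 20 to 40 ppm, limma called 0 genes (smallest adjusted p = 0.144), with 1995 at an unadjusted p under 0.05.

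**Figure D2:**
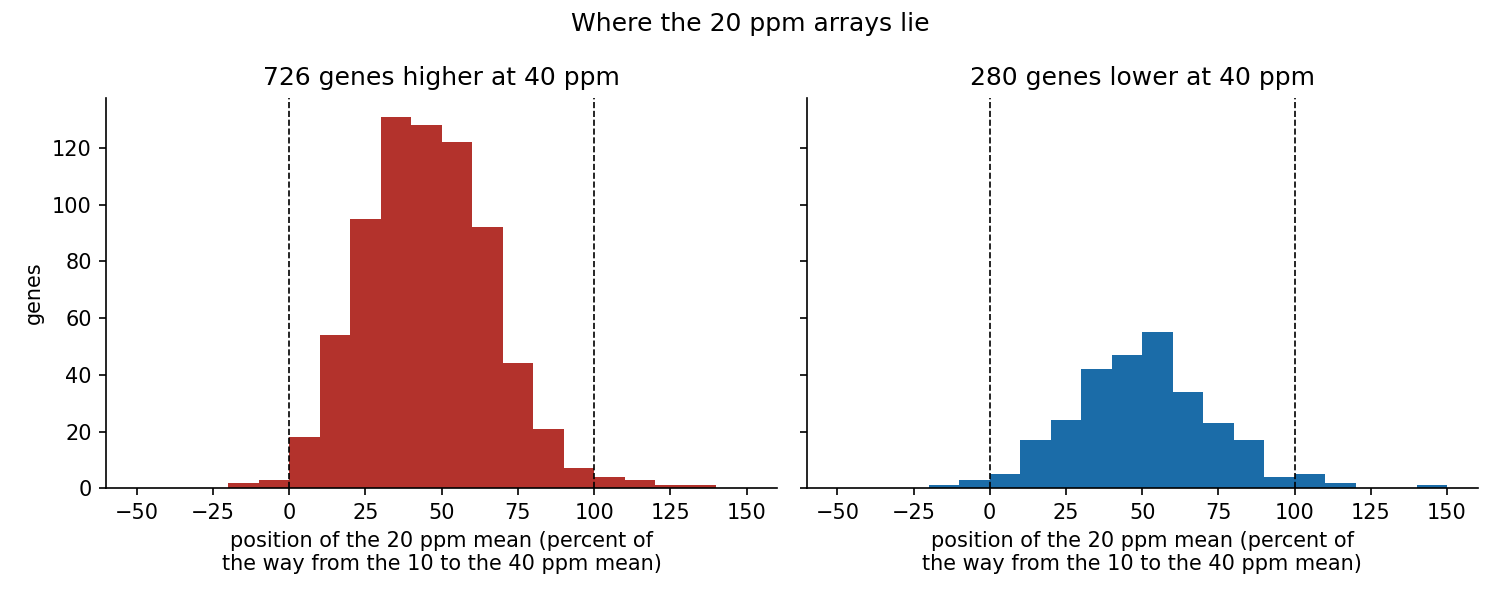
The histograms count genes by where their 20 ppm mean lies, in percent of the way from the 10 ppm mean to the 40 ppm mean, with values beyond the axis set to its ends. The 726 genes higher at 40 ppm (left) centre on 44.6% and the 280 lower genes (right) on 50.2%, with dashed lines at both outer doses.

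Mucous cell genes held the lower gene with the largest difference of all those called. Clca1, a secreted protein of goblet cells, read 10.17, 10.85, 11.22, 9.80 and 11.69 on the arrays at 10 ppm and 3.97, 4.16, 5.54, 3.96 and 4.34 at 40 ppm. No array of either group came near the other, and the 40 ppm mean of 4.40 ± 0.66 (SD, n = 5) sat beside 4.70 in air. The difference was -6.35 (SE 0.83, adjusted p = 1.36e-05). Here and below, where arrays of the dimmer group lay under their highest nonspecific-hybridisation control, those arrays were raised to that control and the fold is a lower bound: Clca1 was at least 27.5-fold lower at 40 ppm. At 20 ppm Clca1 read 4.91, 9.59, 4.43, 8.75 and 3.77, so that 2 arrays lay near the 10 ppm range and 3 near air. A dimmer probe set of Clca1 differed by -1.02 (adjusted p = 0.00131).

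The other mucous genes moved less far. Slc26a4, the anion exchanger pendrin, read 8.66, 9.29, 8.84, 8.15 and 8.92 at 10 ppm and 6.26, 6.77, 8.25, 6.28 and 6.70 at 40 ppm. Only 40 ppm replicate 3 overlapped the 10 ppm arrays, and the gene was 3.78-fold lower (difference -1.92, SE 0.37, adjusted p = 0.00152), still above its 4.79 in air. Agr2, a disulfide isomerase needed to fold mucins, was at least 3.29-fold lower (difference -2.11, SE 0.58, adjusted p = 0.0250). Leaving out any of 10 ppm replicates 3 and 5 and 40 ppm replicates 1, 4 and 5 ended its call, with adjusted p up to 0.0731 and differences from -1.91 to -2.07. The other probe set of Agr2 differed by -2.21 (adjusted p = 0.00372 in limma over all single-gene probe sets). Of 15 goblet and mucus genes 4 were lower and 0 higher, with a median of -0.66 against 0.04 over all genes. The count was 2 without 40 ppm replicate 5. The mucin Muc5b differed by -1.51 (SE 0.64, adjusted p = 0.169), and the mucin Muc5ac lay under the highest nonspecific control in both groups. Of 10 club cell markers 2 were also lower, and the mean of that list ran from 10.66 to 11.30 at 10 ppm and from 10.38 to 10.94 at 40 ppm. The part of club cells in the goblet cell values was not tested.

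Genes of type 2 inflammation were lower beside them. Ccl24, an eotaxin that attracts eosinophils, read 8.11, 7.21, 6.97, 6.51 and 7.12 at 10 ppm and 3.97, 3.95, 4.90, 3.54 and 3.91 at 40 ppm. The groups were 1.60 apart at their nearest, and the 40 ppm arrays fell around the 4.16 measured in air. Ccl24 differed by -3.13 (SE 0.31, adjusted p = 1.51e-07) and was at least 2.32-fold lower, and the eotaxin Ccl11 differed by -1.80 (SE 0.24, adjusted p = 1.71e-05).

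Retnla, a secreted protein of alternatively activated macrophages and airway epithelium, read 13.01, 13.09, 13.09, 12.98 and 13.11 at 10 ppm and 11.76, 11.94, 12.12, 11.16 and 11.65 at 40 ppm. The 10 ppm arrays agree within 0.13 and the 40 ppm arrays all lay lower, yet above the 10.51 of air. The gene was 2.51-fold lower (difference -1.33, SE 0.17, adjusted p = 1.05e-05), and signals above log2 12 may saturate, so that the true size is uncertain. Ccl22 and Ccl17, chemokines that share the receptor Ccr4, differed by -1.04 (adjusted p = 0.00294) and -0.80 (adjusted p = 0.0183). Of 17 type 2 genes 7 were lower and 0 higher, and the median was -0.47. The count was 4 without 10 ppm replicate 2. The cytokines Il4, Il5 and Il13 themselves differed by between -0.05 and 0.09 and were not called. Of the 17 type 2 genes, 5 lay under the highest nonspecific control on every array of both groups. For genes that dim, a small difference cannot show that the level stayed the same.

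**Figure D3:**
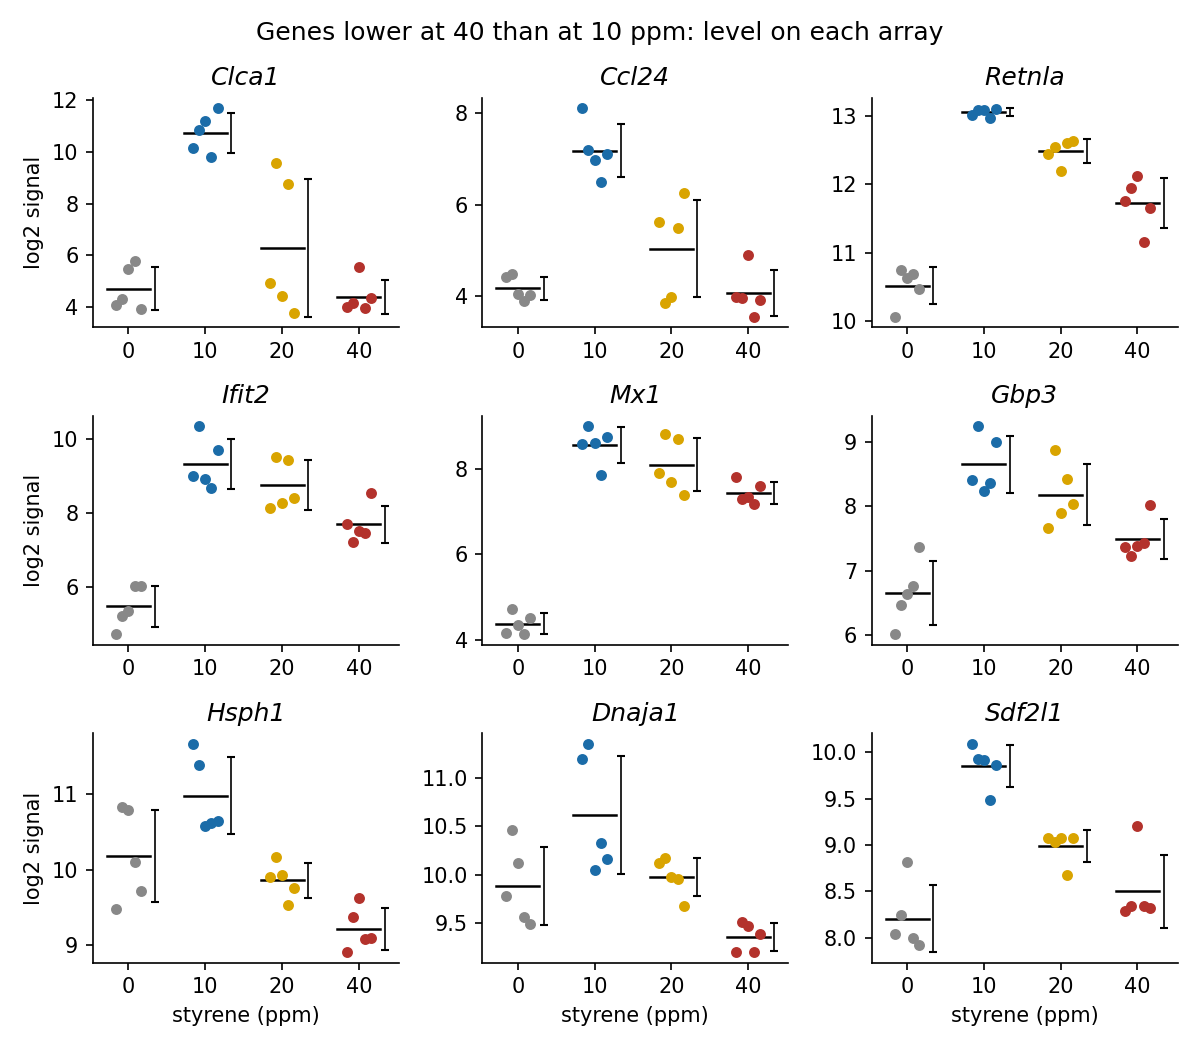
Log2 signal (y axis, own scale per gene) on each of 5 arrays at 0, 10, 20 and 40 ppm styrene for 9 genes lower at 40 than at 10 ppm, with the mean as a bar and 1 SD as a whisker. Clca1, Ccl24 and Retnla, Ifit2, Mx1 and Gbp3, and Hsph1, Dnaja1 and Sdf2l1 form the rows from top to bottom, and Clca1 splits into 2 high and 3 low arrays at 20 ppm.

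Interferon-induced genes stayed well above air at 40 ppm but below their level at 10 ppm. Ifit2, which binds viral RNA, read 8.99, 10.34, 8.91, 8.68 and 9.69 at 10 ppm and 7.70, 7.22, 7.50, 7.46 and 8.54 at 40 ppm. Every 40 ppm array lay below every 10 ppm array, though 40 ppm replicate 5 came within 0.14 of the lowest. Ifit2 was 3.11-fold lower (difference -1.64, SE 0.42, adjusted p = 0.0142), and its call was lost without 10 ppm replicate 2 (difference -1.38, adjusted p = 0.0742).

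Mx1, a GTPase that blocks viruses, read 8.58, 9.0, 8.61, 7.85 and 8.74 at 10 ppm and 7.81, 7.30, 7.33, 7.18 and 7.59 at 40 ppm. The groups met but did not overlap, and the difference was -1.11 (SE 0.26, adjusted p = 0.00871). In air Mx1 lay at 4.37, so the arrays at 40 ppm kept most of the distance from air. Trim30a, an interferon-inducible ring finger protein, and Herc6, a ligase that attaches the ubiquitin-like Isg15, differed by -1.17 (adjusted p = 0.00494) and -1.11 (adjusted p = 0.0012).

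Of 25 genes of the interferon response, 11 were lower and 0 higher. All 25 had a negative difference, with a median of -0.57 and a range from -1.64 to -0.07. Against air, the median member was 2.71 higher at 10 ppm, 2.24 higher at 20 ppm and 1.85 higher at 40 ppm. Those 3 values share the 0 ppm arrays. The mean of the list ran from 8.64 to 9.26 on the 10 ppm arrays and from 8.11 to 8.47 at 40 ppm, without overlap. The number lower was 5 without 10 ppm replicate 2 and 7 without 40 ppm replicate 4.

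Among the guanylate-binding proteins and immunity-related GTPases, which interferon gamma induces, 5 of 12 were lower and 0 higher (median -0.65). Gbp3, of the former family, was 2.23-fold lower (difference -1.16, SE 0.29, adjusted p = 0.0139). It was not called without 10 ppm replicate 2 (difference -1.01, adjusted p = 0.0667). Omitting 10 ppm replicate 2, or 40 ppm replicate 4, left 1 lower member of this list. Omitting 10 ppm replicate 3, 10 ppm replicate 5 or 40 ppm replicate 2 left 3. Gbp10, outside that list, differed by -1.51 (SE 0.32, adjusted p = 0.00399).

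The doses of 5 and 0 ppm share no array with this comparison and so group the genes independently, apart from the fit's common spread. Of 194 genes higher at 5 ppm than in air (1.13% of all genes), 40 (20.6%) were lower at 40 than at 10 ppm and 3 (1.55%) were higher. Of these 194 genes 156 (80.4%) had a negative difference, against 41.2% of all genes, and their median was -0.24. The number lower ran from 23 without 10 ppm replicate 2 to 44 without 10 ppm replicate 4, and was 24 without 40 ppm replicate 4. An array at 5 ppm carries an animal number that also appears at 1 ppm. The genes called at 20 ppm against air, again with no shared array, divided differently: of 1102 higher genes (6.45% of all) 99 (8.98%) rose further and 80 (7.26%) were lower at 40 than at 10 ppm. Of 1153 genes lower at 20 ppm than in air (6.74% of all), 109 (9.45%) were higher and 28 (2.43%) lower at 40 than at 10 ppm. Over all genes these shares were 4.25% higher and 1.64% lower. Among genes called neither way at 20 ppm they were 3.49% and 1.16%. The share of higher calls was thus above that of all genes in both groups called at 20 ppm.

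The chaperones of the ER had the highest share of lower members among the 36 pathway lists. Of 21 genes, 13 were lower and 0 higher, all 21 differences were negative, and the median was -0.49. The mean of the list ran from 10.10 to 10.30 at 10 ppm and from 9.54 to 9.83 at 40 ppm, where it overlapped the range in air (9.40 to 9.79). Sdf2l1, a chaperone partner in the ER lumen, read 10.09, 9.92, 9.91, 9.48 and 9.86 at 10 ppm and 8.29, 8.34, 9.21, 8.35 and 8.33 at 40 ppm. Only 40 ppm replicate 3 came near the 10 ppm arrays, and the other 4 lay within 0.06 of each other. The gene was 2.55-fold lower (difference -1.35, SE 0.18, adjusted p = 1.99e-05).

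Creld2, an ER protein induced by misfolding, differed by -0.93 (SE 0.15, adjusted p = 3.75e-04) and the ER paralogue of Hsp90, Hsp90b1, by -0.89 (SE 0.21, adjusted p = 0.00936). Hspa5, the ER Hsp70 that senses unfolded proteins, read 11.71 on average at 10 ppm and 11.00 at 40 ppm (difference -0.70, SE 0.13, adjusted p = 9.65e-04), and 11.04 in air. Manf, Pdia3, Pdia4, Pdia6, Hyou1, Calr, Dnajb9, Dnajb11 and Dnajc3 made up the rest of the 13. Xbp1, the transcription factor that drives many of them, differed by -0.14 and was not called.

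The ER stress element, a promoter sequence bound by the unfolded protein response factor Atf6 with NF-Y, was searched in the 250 bases before each RefSeq gene start (GRCm38.p6) on both strands. Its letters were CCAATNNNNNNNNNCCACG. It was found in 8 of 18 ER chaperone genes with a promoter sequence, 6 of 11 called and 2 of 7 others, and in 19 of 13605 genes of the comparison with a promoter (0.14%). A match describes the letters and not a working site. These stretches show the element, in capitals, in 5 of the 6 lower chaperones that hold it, and each runs 5′ to 3′ along the gene's strand. Hspa5 and Pdia6 are named for this match, outside the rule for named genes. In Creld2 the element is in the reverse orientation.
Creld2, plus strand, chr15:88819490-88819568: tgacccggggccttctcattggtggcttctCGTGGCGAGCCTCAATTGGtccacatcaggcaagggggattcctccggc
Hsp90b1, minus strand, chr10:86705608-86705686: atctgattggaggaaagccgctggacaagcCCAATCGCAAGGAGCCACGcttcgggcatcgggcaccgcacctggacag
Dnajc3, plus strand, chr14:118937797-118937875: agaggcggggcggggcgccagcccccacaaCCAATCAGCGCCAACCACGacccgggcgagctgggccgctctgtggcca
Hspa5, plus strand, chr2:34771995-34772073: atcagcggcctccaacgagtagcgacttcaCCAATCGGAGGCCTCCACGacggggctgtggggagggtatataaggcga
Pdia6, plus strand, chr12:17266461-17266539: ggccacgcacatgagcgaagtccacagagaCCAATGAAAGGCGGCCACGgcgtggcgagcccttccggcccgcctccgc
The Hsp90b1 element begins 212 bases before the gene start and that of Hspa5 begins 65 bases before it.

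The interferon-stimulated response element was searched in the same way as GAAANNGAAA. It was present in 7 of 17 interferon response genes with a promoter, 4 of 8 called and 3 of 9 others, against 3.09% of genes. The 3 stretches below, from lower members, show it in capitals, in the reverse orientation on each gene's own strand, and Rsad2 and Ifit3 are named for it outside the rule.
Trim30a, minus strand, chr7:104465194-104465259: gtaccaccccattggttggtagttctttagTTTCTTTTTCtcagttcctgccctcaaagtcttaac
Rsad2, minus strand, chr12:26456533-26456602: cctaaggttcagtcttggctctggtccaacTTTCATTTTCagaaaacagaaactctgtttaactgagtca
Ifit3, plus strand, chr19:34583343-34583412: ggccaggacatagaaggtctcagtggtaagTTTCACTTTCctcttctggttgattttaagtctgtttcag
Rsad2, the antiviral enzyme viperin, differed by -0.95 (adjusted p = 0.0297), and Ifit3, which binds RNA with its relatives, by -0.80 (adjusted p = 0.0113). Searched likewise, a heat shock element, GAANNTTCNNGAA, was found in 1 of 12 heat shock genes with a promoter, the called Hspe1, against 0.463% of genes.

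Heat shock genes were lower at 40 than at 10 ppm, and 3 of 15 were then below air, as were 5.04% of all genes. Hsph1, a large chaperone of the Hsp110 family, read 11.67, 11.39, 10.58, 10.62 and 10.65 at 10 ppm and 8.91, 9.37, 9.63, 9.08 and 9.10 at 40 ppm. The 10 ppm replicates 1 and 2 stood above the other 3, and even the lowest of the 5 lay above every 40 ppm array. Hsph1 was 3.39-fold lower (difference -1.76, SE 0.21, adjusted p = 5.54e-06), and its 40 ppm mean of 9.22 was also called against the 10.19 of air (difference -0.97, adjusted p = 0.00186).

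Dnaja1, a J-domain partner of Hsp70, read 11.19, 11.35, 10.05, 10.33 and 10.16 at 10 ppm and 9.20, 9.52, 9.47, 9.20 and 9.39 at 40 ppm. Replicates 1 and 2 at 10 ppm again stood highest, and the groups were separate (difference -1.26, SE 0.22, adjusted p = 5.86e-04). Ahsa2, a relative of the Hsp90 activator Ahsa1, was at least 3.64-fold lower (difference -1.92, SE 0.23, adjusted p = 3.83e-06). The Hsp90 partners Chordc1 and Stip1 differed by -1.35 (adjusted p = 0.00152) and -0.96 (adjusted p = 0.00158).

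Of 15 heat shock genes 8 were lower and 0 higher (median -0.47), and 6 were lower without 10 ppm replicate 2. The inducible Hsp70 gene Hspa1b was not called, with a wide error. It lay at 11.56 at 10 ppm and 11.53 at 40 ppm (difference -0.03, SE 0.52, adjusted p = 0.988), against 10.10 in air. Hspa4l, an Hsp110 relative outside the list, was 2.62-fold lower (difference -1.39, SE 0.32, adjusted p = 0.00645).

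Cirbp, an RNA-binding protein induced by mild cold, was higher at 40 ppm. It read 5.96, 6.39, 6.98, 6.80 and 7.18 at 10 ppm and 8.47, 8.48, 7.70, 8.88 and 8.24 at 40 ppm. The lowest arrays were 10 ppm replicates 1 and 2, where Hsph1 and Dnaja1 were highest, and the groups did not overlap. Cirbp was 3.23-fold higher (difference 1.69, SE 0.22, adjusted p = 1.49e-05), with 7.39 in air and 7.82 at 20 ppm between. Of 18 circadian genes, which run the daily clock, 3 were higher and 0 lower (median 0.25). The list went both ways, with 12 positive and 6 negative differences, the lowest -0.69. At an unadjusted limma p under 0.05, 6 were higher and 3 lower, and array weights called 3 lower. Cry2, a clock repressor, was 0.48 higher (SE 0.11, adjusted p = 0.00876). Leaving out 10 ppm replicate 2, or else 40 ppm replicate 4, left 1 higher circadian gene.

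Prss22, a serine protease of the airways, had the largest difference of the higher genes. It read 4.74, 5.64, 5.39, 5.73 and 4.77 at 10 ppm and 8.50, 8.45, 8.04, 8.44 and 7.13 at 40 ppm. The groups lay 1.40 apart at their nearest, and the 20 ppm arrays, from 7.08 to 7.41, fell between or beside the lowest of 40 ppm. Prss22 was at least 4.23-fold higher (difference 2.86, SE 0.23, adjusted p = 1.18e-09), from 3.98 in air, and kept its call under each of 21 alternatives with differences from 2.73 to 3.10.

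Cldn4, a tight junction claudin that injured alveolar epithelium makes, read 5.79, 6.46, 6.28, 6.86 and 7.03 at 10 ppm and 7.80, 7.83, 7.29, 8.25 and 7.34 at 40 ppm. At 10 ppm it overlapped the arrays in air, where the mean was 6.16, and at 40 ppm it did not. The difference was 1.22 (SE 0.26, adjusted p = 0.00351). Tgm1, a transglutaminase that cross-links the envelope of squamous cells, was at least 1.96-fold higher (difference 1.12, SE 0.15, adjusted p = 1.99e-05). Psapl1, a saposin-like protein, was at least 2.45-fold higher (difference 1.77, SE 0.23, adjusted p = 1.15e-05), and Krt19, a keratin of simple epithelium, was 0.43 higher (adjusted p = 0.0082).

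The squamous and keratin list did not move as a block. Of 14 genes 2 were higher, Cldn4 and Krt19, and 1 was lower, with a median of 0.06. Without 10 ppm replicate 3, 4 were higher. The lower member was Sprr1a, a small proline-rich envelope protein (difference -1.38, SE 0.25, adjusted p = 9.78e-04), and its relative Sprr2a1 was at least 1.92-fold lower (difference -1.64, SE 0.33, adjusted p = 0.00222). Pigr, which carries IgA across epithelium, was 3.47-fold lower (difference -1.79, SE 0.31, adjusted p = 6.31e-04) and lay below its level in air at 40 ppm (7.14 against 8.07, adjusted p = 0.0465).

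**Figure D4:**
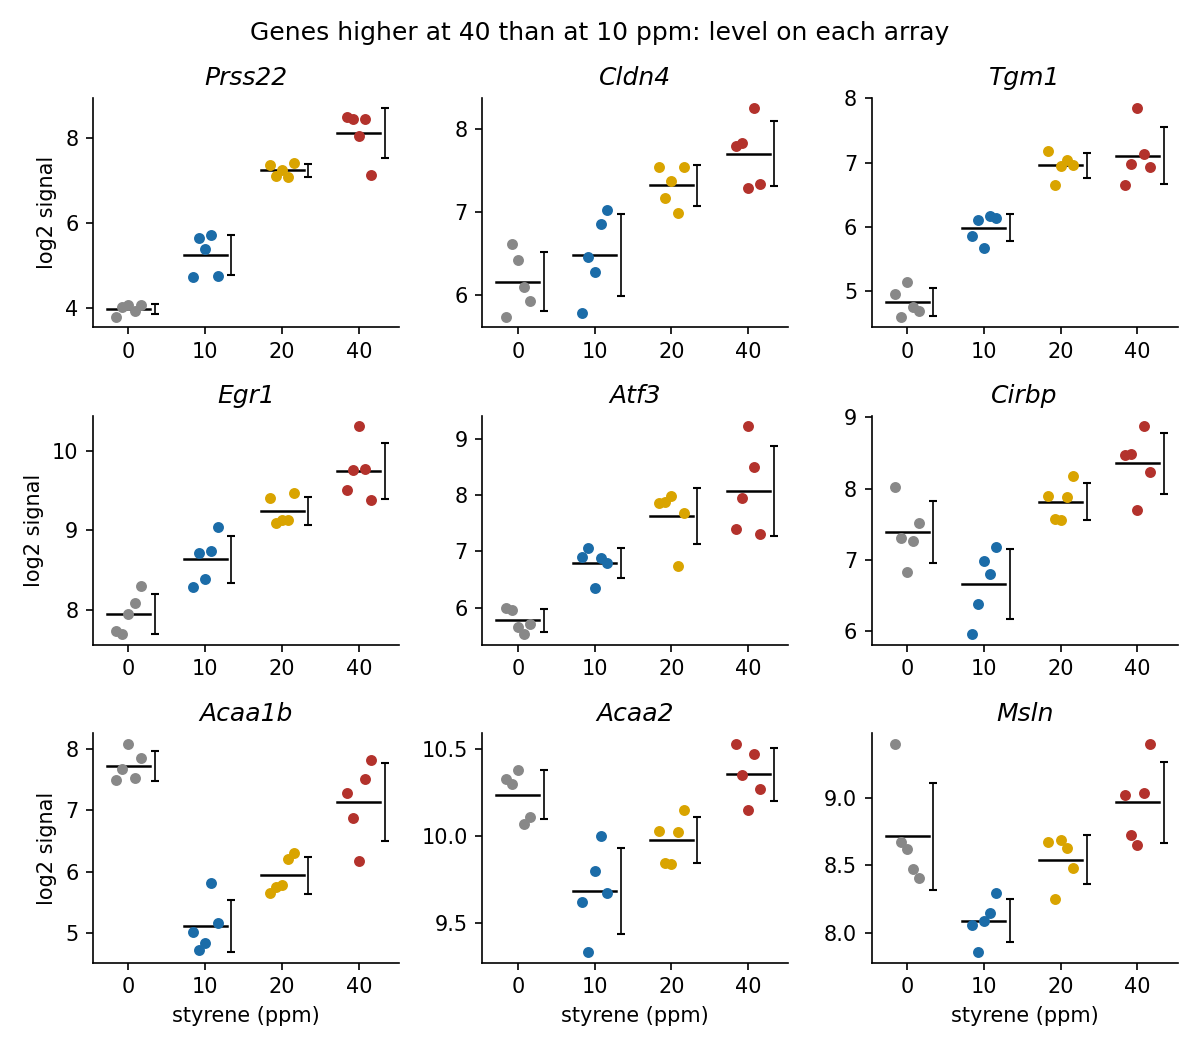
Log2 signal (y axis, own scale per gene) on each of 5 arrays at 0, 10, 20 and 40 ppm styrene for 9 genes higher at 40 than at 10 ppm, with the mean as a bar and 1 SD as a whisker. Prss22, Cldn4, Tgm1, Egr1 and Atf3 climb from air through all doses, whereas Acaa1b, Acaa2 and Msln are lowest at 10 ppm and return towards air at 40 ppm.

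Immediate early genes had the highest share of higher members among the 36 pathway lists. Egr1, a zinc finger transcription factor, read 8.29, 8.71, 8.40, 8.74 and 9.04 at 10 ppm and 9.51, 9.76, 10.31, 9.77 and 9.39 at 40 ppm. All 40 ppm arrays lay above the highest 10 ppm array, and air lay at 7.95. Egr1 was 2.16-fold higher (difference 1.11, SE 0.19, adjusted p = 5.9e-04). Atf3, a stress-induced bZIP factor, read 6.90, 7.06, 6.34, 6.89 and 6.79 at 10 ppm and 7.40, 7.94, 9.23, 8.50 and 7.32 at 40 ppm. Its arrays spread more widely at 40 ppm (SD 0.80 against 0.27) without overlap, and the difference was 1.28 (SE 0.30, adjusted p = 0.00711).

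Of 22 immediate early genes 10 were higher and 0 lower, and 21 differences were positive, with a median of 0.47. Without 40 ppm replicate 3, which had the highest Egr1 and Atf3, 4 were higher, and without 10 ppm replicate 2, 6 were. Fos, Junb and Myc, which encode growth-responsive factors, were among the 10 and differed by 0.62, 0.69 and 0.55. They are named here after their values were seen. Among 10 genes of the EGF receptor family and its ligands 1 was higher, the ligand Hbegf, which lay at 9.79 at 10 ppm and 10.44 at 40 ppm (difference 0.65, adjusted p = 0.0433). Leaving out any of 10 ppm replicates 1, 2 and 5 and 40 ppm replicates 2, 3 and 4 ended its call. Fst, the activin-binding protein follistatin, was 2.26-fold higher (difference 1.17, SE 0.27, adjusted p = 0.00742), with overlap between the groups.

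Genes of fatty acid oxidation were higher at 40 than at 10 ppm. The median member differed from air by -0.32 at 10 ppm and by -0.05 at 40 ppm, values that share the 0 ppm arrays. Acaa1b, a peroxisomal thiolase, read 5.03, 4.74, 4.84, 5.82 and 5.17 at 10 ppm and 7.29, 6.88, 6.17, 7.51 and 7.82 at 40 ppm. The groups were separate, and the 40 ppm mean of 7.13 was not called against the 7.72 of air (difference -0.59, adjusted p = 0.101). Acaa1b was at least 2.14-fold higher (difference 2.01, SE 0.23, adjusted p = 3.09e-06). Acaa2, the mitochondrial thiolase, was 1.59-fold higher (difference 0.67, SE 0.12, adjusted p = 6.79e-04), and both of its other probe sets were higher too (0.69 and 0.72).

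Of 18 fatty acid oxidation genes 6 were higher and 0 lower, with a median of 0.33, and 3 were higher without 10 ppm replicate 1 and 2 without 10 ppm replicate 2. The other 4 were Acot1, Acot2, Hadh and Acadvl, enzymes that release or oxidise fatty acyl groups. Pdk4, which restrains glucose oxidation in fasting, differed by 1.02 (adjusted p = 0.0667). All 13 glucocorticoid targets had a positive difference with a median of 0.38, but 0 of them were called in limma. At an unadjusted p under 0.05 there were 7. Fitting only the compared groups called 3 higher, and 1 was called with array weights, with arrays centred on their median, without 120 ppm, among brighter genes alone and at an adjusted p of 0.1. Of 19 sterol synthesis genes 3 were higher and 0 lower (median 0.24), among them lanosterol synthase Lss, at least 1.73-fold higher (difference 0.83, SE 0.20, adjusted p = 0.00797). At a fold of at least 1.5 the count was 1. Fdft1, also among the 3, lost its call when any of 8 arrays was left out singly. The other probe sets of the called Hsd17b7 differed by 0.17 and 0.44 (adjusted p = 0.528 and 0.0819 in limma over all single-gene probe sets).

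**Figure D5:**
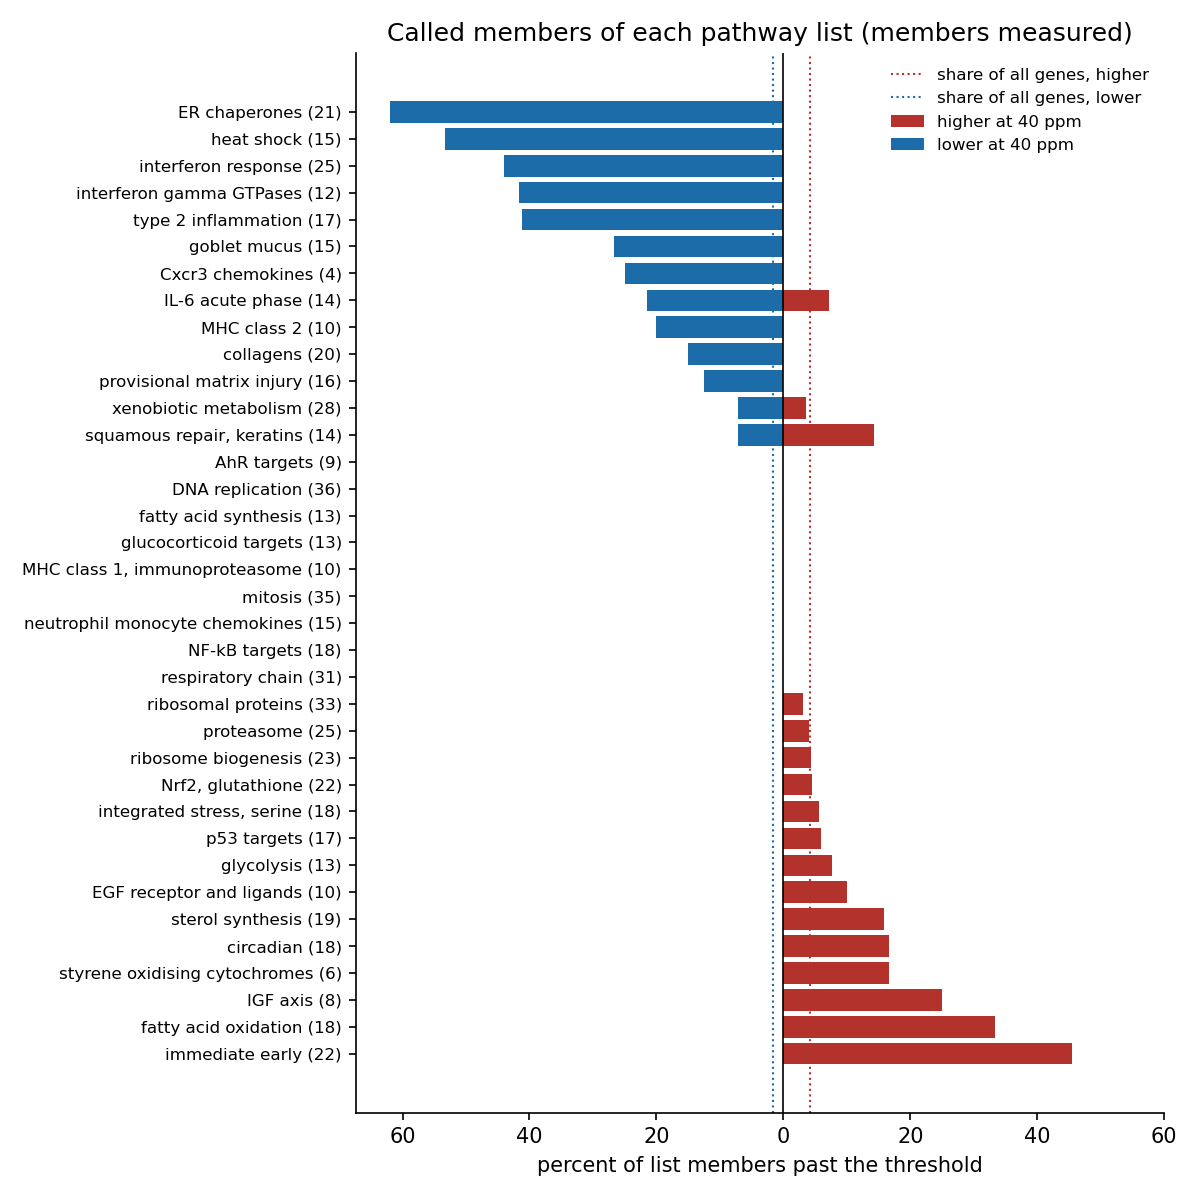
For each of 36 pathway lists, with the number of genes measured in brackets, bars give the percent of members called lower at 40 ppm (blue, to the left) and higher (red, to the right), and dotted lines mark the 1.64% and 4.25% of all genes called in those directions. ER chaperones lead on the left with 13 of 21 and immediate early genes on the right with 10 of 22.

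The acute phase and matrix lists were mixed. Of 14 acute phase genes 3 were lower and 1 higher, with a median of -0.20. The higher one was the cytokine Lif (difference 0.53, adjusted p = 0.0453), whose call was lost when any of 8 arrays was left out singly. Its other probe sets differed by -0.05 and 0.18. Saa3, a serum amyloid made in injured lung, read 9.87, 9.96, 10.00, 9.42 and 9.78 at 10 ppm and 8.46, 8.52, 9.51, 8.06 and 7.59 at 40 ppm, with 40 ppm replicate 3 inside the 10 ppm range. It differed by -1.38 (SE 0.42, adjusted p = 0.0428), and lost its call when any single array but 10 ppm replicate 4 or 40 ppm replicate 3 was left out. Haptoglobin Hp, a carrier of free haemoglobin, differed by -0.34 (adjusted p = 0.00735) at a level above log2 12. Omitting 10 ppm replicate 2, or replicate 5, left 1 lower member.

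Tnc, the matrix protein tenascin, differed by -1.03 (SE 0.23, adjusted p = 0.00494), and with Mmp12 was 1 of 2 lower members of 16 injury matrix genes, of which 0 were higher (median 0.12). Mmp12 lost its call when any of 7 arrays was left out singly, 10 ppm replicates 1 to 3 among them, and Tnc did not lose it for any. The other probe set of Tnc differed by only -0.12 (adjusted p = 0.780 in limma over all single-gene probe sets). On the brightest Tnc probe set the groups overlapped, with a 40 ppm array at 7.41 and a 10 ppm array at 7.31. Among 20 collagens and their processing genes 3 were lower, led by the collagen chaperone Serpinh1 (difference -0.67, SE 0.10, adjusted p = 1.63e-04), and 0 higher, with a median of -0.15. Serpinh1 is also a heat shock gene. Leaving out any of 10 ppm replicates 1 and 2 and 40 ppm replicate 4 left 1 lower collagen gene.

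Among the enzymes that oxidise styrene, 1 was called. Cyp2f2, the main one in mouse lung, lay at 12.70 ± 0.06 at 10 ppm and 12.55 ± 0.12 at 40 ppm (SD, n = 5; difference -0.15, SE 0.08, adjusted p = 0.291), below the 13.24 of air at both. Cyp2e1 differed by -0.16 with a wide error (SE 0.80, adjusted p = 0.951). Of 6 styrene-oxidising cytochrome genes Cyp2b10 alone was higher (difference 0.34, SE 0.09, adjusted p = 0.0124), and it missed the threshold without 10 ppm replicate 1 (0.29, adjusted p = 0.0571). The glutathione and Nrf2 list, whose enzymes detoxify epoxides, held 22 genes, of which 1 was higher and 0 lower (median 0.10). Over all genes 4.25% were higher. The higher gene was Osgin1, an oxidative stress-induced growth inhibitor (difference 0.94, SE 0.16, adjusted p = 5.9e-04).

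The remaining metabolic lists held few calls, beside 4.25% of all genes called higher and 1.64% called lower. Of 28 genes of xenobiotic metabolism 2 were lower and 1 higher (median -0.05): Aox1, an aldehyde oxidase, by -0.54 (adjusted p = 0.00574) and Aldh1a7, against the sulfotransferase Sult1a1 at 0.70 (adjusted p = 0.00807). Of 8 genes of the insulin-like growth factor axis 2 were higher and 0 lower (median 0.01). They were Igfbp6 and Igfbp2, secreted proteins that bind these growth factors. Igfbp6 lay at 10.60 ± 0.09 at 10 ppm and 11.19 ± 0.15 at 40 ppm (SD, n = 5; difference 0.59, SE 0.11, adjusted p = 0.00148), beside 11.24 in air. Igfbp2 lay at 10.85 ± 0.18 and 11.40 ± 0.18 (SD, n = 5; difference 0.56, SE 0.13, adjusted p = 0.00947).

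Lists of 33 ribosomal proteins, 25 proteasome subunits, 23 ribosome biogenesis genes, 18 integrated stress genes, 17 p53 targets and 13 glycolytic genes had 1 higher and 0 lower members each. Over all genes 4.25% were called higher, so single calls in lists of these sizes do not set the lists apart. Their medians ran from 0.04 to 0.14. The higher members were Rpl22, Psmb6, Rrp12, Slc3a2, Plk3 and the hexokinase Hk2, with differences from 0.24 to 0.69. Each of these calls was lost when single arrays were left out: any of 2 for Hk2, Plk3 and Rrp12, any of 3 for Rpl22, any of 4 for Psmb6 and any of 7 for Slc3a2. In limma 0 of 13 fatty acid synthesis genes and 0 of 9 aryl hydrocarbon receptor targets were called, with medians of -0.16 and 0.02, and 2 and 3 genes at an unadjusted p under 0.05. Scd1, of the fatty acid synthesis list, read between 12.59 and 13.18 on its brightest probe set (adjusted p = 0.0842). Its other probe set was lower (difference -0.93, adjusted p = 0.00807 in limma over all single-gene probe sets). Averaging each gene's probe sets called 1 lower fatty acid synthesis gene, as did array weights and the fit without 120 ppm.

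Genes of antigen presentation were lower in part. Of 10 class 2 genes 2 were lower and 0 higher (median -0.29), and Cd74, the invariant chain, lay at 11.13 ± 0.19 at 10 ppm and 10.71 ± 0.17 at 40 ppm (SD, n = 5; difference -0.42, SE 0.10, adjusted p = 0.00731), with 10.96 in air. H2-Ab1, a class 2 beta chain, differed by -0.37 (adjusted p = 0.0440) and lost its call when any of 7 arrays was left out singly. All 10 genes of class 1 presentation and the immunoproteasome had a negative difference (median -0.18), with 0 called in limma and 4 at an unadjusted p under 0.05. Array weights called 4 of these class 1 genes lower, and fitting only the compared groups called 2. Of 4 chemokines that bind Cxcr3 1 was lower, Cxcl9 (difference -0.84, adjusted p = 0.0428), whose call was lost when any of 8 arrays was left out singly and which has no size. Only 2 arrays at 10 ppm and 0 at 40 ppm read it above their highest nonspecific control.

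No proliferation gene of the lists was called in the main fit. Of 36 DNA replication genes 0 were called in limma and 4 had an unadjusted p under 0.05, with a median of -0.08. Of 35 mitosis genes 0 were called in limma and 3 had an unadjusted p under 0.05, with a median of 0.09. Their medians against air were 0.67 and 0.41 at 10 ppm and 0.54 and 0.37 at 40 ppm. Fitting only the compared groups called 1 DNA replication gene and 2 mitosis genes lower, and 1 mitosis gene higher. Array weights called 2 DNA replication genes lower and 1 mitosis gene higher, and the fit without 120 ppm called 1 and 1. The main limma fit also called 0 of 31 genes of the respiratory chain, 18 NF-kB targets and 15 neutrophil and monocyte chemokines, with medians of 0.04, 0.10 and 0.07. At an unadjusted p under 0.05 these lists held 3, 5 and 4 genes. Fitting only the compared groups called 3 NF-kB targets higher. Array weights called 3 respiratory chain genes and 1 NF-kB target higher, and 1 of the chemokines lower. The NF-kB gene nearest to the threshold was Relb, which missed it narrowly (difference 0.52) and was called under 11 of 22 alternatives.

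Markers of 21 cell types were read in the same way, beside 4.25% of all genes called higher and 1.64% called lower. Of 6 mesothelial markers 3 were higher and 0 lower, with a median of 0.81. Upk3b, 1 of the 3, lost its call when any of 6 arrays was left out singly. Its other probe set differed by 0.83 (adjusted p = 0.0618 in limma over all single-gene probe sets). Msln, mesothelin, read 8.06, 7.86, 8.09, 8.14 and 8.30 at 10 ppm and 9.02, 8.73, 8.65, 9.04 and 9.40 at 40 ppm. The groups did not overlap, and the 40 ppm arrays lay beside the 8.72 of air (difference 0.88, SE 0.20, adjusted p = 0.00718). The mean of the mesothelial list ran from 7.11 to 7.67 at 10 ppm and from 7.79 to 8.54 at 40 ppm, and how much pleura each sample held was not tested. Cldn10, a claudin of club cells, and Aldh1a7, an aldehyde dehydrogenase, were the 2 lower club cell markers (differences -0.78 and -0.73, adjusted p = 0.00156 and 0.00115), and Cldn10 lay at 8.92 in air, 8.25 at 10 ppm and 7.47 at 40 ppm.

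Cd209a, a lectin of dendritic cells, was at least 2.07-fold lower (difference -1.32, SE 0.20, adjusted p = 1.63e-04), 1 of 6 dendritic cell markers. Of 7 monocyte markers 2 were lower, and the list's mean ran from 6.55 to 6.90 at 10 ppm and from 6.13 to 6.50 at 40 ppm. Leaving out any of 10 ppm replicates 1, 2 and 5 and 40 ppm replicates 1 and 4 left 1 lower monocyte marker. Siglecf, carried by alveolar macrophages and eosinophils, was at least 1.33-fold higher (difference 0.63, SE 0.14, adjusted p = 0.00427). The macrophage list otherwise had 1 lower member of 10, the chitinase-like Chil3 (-0.31, adjusted p = 0.0283), which lost its call when any of 5 arrays was left out singly. Pf4, a chemokine of platelets, was higher (difference 0.58, SE 0.12, adjusted p = 0.00399), 1 of 4 platelet markers. In the lists of alveolar type 1 cells and fibroblasts 1 gene was higher in each, Spock2 and Inmt (0.58 and 0.25), and in that of alveolar type 2 cells 1 was lower, Muc1 (-0.34). The Inmt call was lost when any of 5 arrays was left out singly. Limma called 0 markers of ciliated, endothelial, smooth muscle, cardiac and skeletal muscle, neutrophil, T, B and NK cells, erythroid cells, hepatocytes and fat. Of the 107 genes in these 12 lists 13 had an unadjusted p under 0.05. Array weights called 3 endothelial markers lower and 1 higher, 1 neutrophil marker higher and 1 T cell marker lower. Cardiac muscle markers, all 9 with a negative difference, had list means from 5.85 to 8.43 at 10 ppm and from 6.41 to 7.44 at 40 ppm, and their part in the other results was not tested.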

How the data were processed

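RNA of whole lung was labelled with an Affymetrix 3' IVT kit and hybridised to 35 arrays, 5 per dose. The deposited values are log2 signals per probe set, already normalised by the authors. RMA and Partek are named in the submitters' processing notes; their versions and settings were not given in the sources here. Precision is limited by the number of arrays. Scan dates and plates were not given. Of 45141 probe sets 104 were controls, and 28898 had 1 gene symbol, 551 several and 15588 none in the annotation used. Each of 17097 genes was represented by its probe set of highest average signal. Gene lists held 917 members, of which 824 matched. Promoter sequences are from RefSeq (GRCm38.p6).

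In R 4.3.3, limma 3.58.1 fitted 1 mean per dose to the 35 arrays (lmFit, then eBayes; 28 residual degrees of freedom and a prior worth 4.617), and 40 ppm was contrasted with 10 ppm. The 20 ppm mean was contrasted with the midpoint of both. Tests were two-sided, with Benjamini-Hochberg adjustment over all genes. A fold is exact only where every array of both groups lay above its highest nonspecific-hybridisation control. Calls of the 40 minus 10 ppm contrast were tested on simulated data with 50 genes changed at each fold. Of these, 8 were recovered at 1.25-fold, 33 at 1.5-fold, 45 at 2-fold and 50 at 4-fold. Among 16897 unchanged genes 7 were called. A list with 0 calls can therefore hold small changes. Python 3.11.15, numpy 2.4.6, pandas 2.3.3 and matplotlib 3.10.9 drew the figures.

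The members, lists and tests were chosen with earlier results of these data known. Named genes are up to 15 with the largest difference each way among called genes, leaving out provisional names, up to 4 called members of each list, Cyp2f2, Cyp2e1 and Scgb1a1, and up to 3 members as values where a list had no call. The 36 pathway and 21 cell type lists are described by counts and medians. Pairing of same-numbered arrays was not shown: the 5 pairs correlated between 0.03 and 0.31 in their deviations, 2 of 5 over 0.1. Alternatives varied the probe set, dim genes, variance model, scaling, arrays fitted and covariates.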

Additional observations from a re-analysis of the deposited data

Results flagged for a closer look

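Of 350 groups of 5 arrays, 17 held an array whose distance to its nearest neighbour, divided by the group's whole range, was above Dixon's critical value of 0.71. Chance gives about 1 in 20. Of these, 5 fell on 40 ppm replicate 3 and 4 on 40 ppm replicate 5. On 40 ppm replicate 3 the values were high for Sdf2l1 (9.21 against 8.35 for the next array, ratio 0.936), Clca1 (5.54 against 4.34, ratio 0.764), Pola1 (ratio 0.750), Slc26a4 (8.25 against 6.77, ratio 0.744) and Fcer2a (ratio 0.740). On 40 ppm replicate 5, Gbp3 was high (8.03 against 7.43, ratio 0.753), and Cd28 (ratio 0.872), the poly-A spike-ins (6.47 against 6.65, ratio 0.763) and Ndufv1 (ratio 0.715) were low. On 40 ppm replicate 4, Tgtp1 (9.84 against 10.73, ratio 0.788) and Erap1 (ratio 0.724) were low. On 40 ppm replicate 2 the highest nonspecific control was low (5.33 against 5.99, ratio 0.712). At 10 ppm, replicate 4 was high for Mmp8 (ratio 0.745) and Upk1b (ratio 0.724) and low for Psmb8 (ratio 0.765). Pf4 was low on replicate 2 (8.48 against 8.75, ratio 0.783) and Lif on replicate 1 (ratio 0.728).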

How the results depend on the processing

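Of the named genes, only Cyp2e1 (from -0.79 to 0.24) and Tnnt2 (from -0.80 to 0.05), neither called, changed direction, each when single arrays were left out. Counts of genes higher and lower at 40 ppm were 1102 and 793 over all probe sets, 1865 and 843 with array weights, 1095 and 574 with only these groups fitted, 1233 and 520 without 120 ppm, 1160 and 472 at an adjusted p of 0.1, and 198 and 172 at a fold of at least 1.5. Leaving out single arrays gave 350 to 849 higher and 133 to 317 lower. The other settings stayed within 1.5 times, from 524 to 868 higher and from 215 to 328 lower, leaving aside the replicate block, which gave 969 and 418 with numbers that were not shown to pair the arrays (2 of 5 arrays at 40 ppm correlated best with their own number). Among genes brighter than every nonspecific control, an alternative chosen after seeing the data, 855 were higher and 284 lower, with 1 lower goblet gene. The 20 ppm midpoint contrast gave 0 calls under every alternative. Of the other probe sets of called genes, 598 of 695 (86.0%) differed in the same direction. Signal over background limits 89 higher and 46 lower genes, which have no size. The cause of these shifts was not tested.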
